A study of Pan troglodytes with 8 samples.

Results

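LIN28A, LIN28B, TRIM71, IGF2BP1, IGF2BP2, IGF2BP3, HMGA1 and HMGA2 were examined as a set of 8 genes known for the timing of development. They were taken by symbol from the count table on the chimpanzee genome (panTro6), where 8 of the 60583 named rows belong to them. All 8 passed the filter on low counts, which kept 35382 rows. The cells came from cerebral organoids, 3-dimensional brain-like cultures, of the chimpanzee induced pluripotent stem cell line SandraA, so every library comes from 1 line. The organoids were collected at week 8, within 3 days either side, and were untreated as far as the labels say. Fluorescence-activated sorting gave 4 populations with 2 libraries each, 8 libraries in all. They are apical radial glia (aRG, stem cells lining the ventricle), basal radial glia (bRG, stem cells away from it), basal intermediate progenitors (bIP, short-lived dividing cells) and neurons positive for BCL11B (N). The labels do not give the gates beyond these names, nor do they say if a population's libraries were grown as separate cultures. The p-values therefore measure only how these libraries vary, which may be technical.

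As background, LIN28A and LIN28B are RNA-binding proteins that hold back the maturation of the let-7 microRNAs. Mature let-7 in turn lowers the transcripts of LIN28, of TRIM71, of the IGF2BP family and of HMGA2, so that in many animals these genes are high early in development and decline as let-7 accumulates. In the mouse forebrain, HMGA2 and IGF2BP1 are known for their high level in young neural stem cells.

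Sorting labels were checked against marker genes. Levels are CPM (read counts relative to the library's size) after scaling by the trimmed mean of M values, and they are not divided by transcript length, so levels of different genes are not compared. Library totals were 24649971 to 33245892 counts. Summed over 10 radial glia markers, libraries of aRG held 3533 to 3797 CPM and those of bRG 2448 to 2533. Libraries of bIP held 1067 to 1247 CPM and those of N 769 to 1245, with HES5 listed at 0 in all 8. PTPRZ1 ran the other way, with 10762 reads in aRG 1 and 27988 in N 1, where it alone held 1082 CPM of the sum. The 7 intermediate progenitor markers summed to 3124 to 3719 CPM in bIP and to at most 886 elsewhere. The 10 neuron markers summed to 8091 to 8703 CPM in N and to 876 to 5504 elsewhere. Library aRG 2 stood apart in markers of other tissue: its 8 choroid plexus markers summed to 3260 CPM against 894 in aRG 1, and its 8 mesenchyme markers to 2026 against 393.

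HMGA2 fell from aRG to bIP and again from bIP to N, to a level 24.0-fold below aRG. TRIM71, at 0.472 CPM or less in aRG, was higher in N than in aRG, and LIN28A was lower in N than in either radial glia population. In the test given next, fitted without a replicate block, LIN28B, HMGA1 and the 3 IGF2BP genes passed the threshold in no comparison. Under other settings IGF2BP1 passed between N and aRG (7 of 11), and LIN28B passed only with the block. Differences were tested with edgeR's quasi-likelihood test over all 35382 rows, with Benjamini-Hochberg adjusted p under 0.05 as the threshold. In the test of any difference among the 4 populations, 2 of the 8 genes passed, HMGA2 (adjusted p = 0.000364) and TRIM71 (adjusted p = 0.0298), where 7.62% of all rows did. Between N and aRG 3 of the 8 passed (9.67% of all rows did), with HMGA2 and LIN28A lower in N (4.8% of all rows were lower) and TRIM71 higher (4.87% were higher). Between N and bRG 2 passed, HMGA2 and LIN28A, both lower in N, where 6.01% of all rows passed and 3.39% were lower. Between bIP and aRG 1 passed, HMGA2, lower in bIP (2.83% of all rows passed and 1.5% were lower). Between N and bIP 1 passed, again HMGA2, lower in N (2.54% of all rows passed and 1.48% were lower). Between bIP and bRG edgeR called 0 of the 8 genes (1.03% of all rows), 2 genes, HMGA2 and TRIM71, had p under 0.05 before adjustment (9.19% of all rows did), and DESeq2 called HMGA2 alone (5.81% of the rows it tested). Between the radial glia, bRG against aRG, edgeR called 0 of the 8 (0.00283% of all rows, a single row), 0 had p under 0.05 before adjustment (3.73% of all rows did), and DESeq2 called 0 (0.446% of the rows it tested). Libraries of N and aRG did not overlap in 7 of the 8 genes, all but HMGA1, but with 2 libraries a population 49.2% of all rows met that condition too. With the replicate number of the libraries as a block, edgeR called 5 of the 8 genes between N and aRG (14% of all rows), 3 between bIP and aRG (6% of all rows) and 1 between bIP and bRG (3.17% of all rows). In these bulk libraries, fewer cells that express a gene and less of its RNA per cell cannot be told apart.

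**Figure D1:**
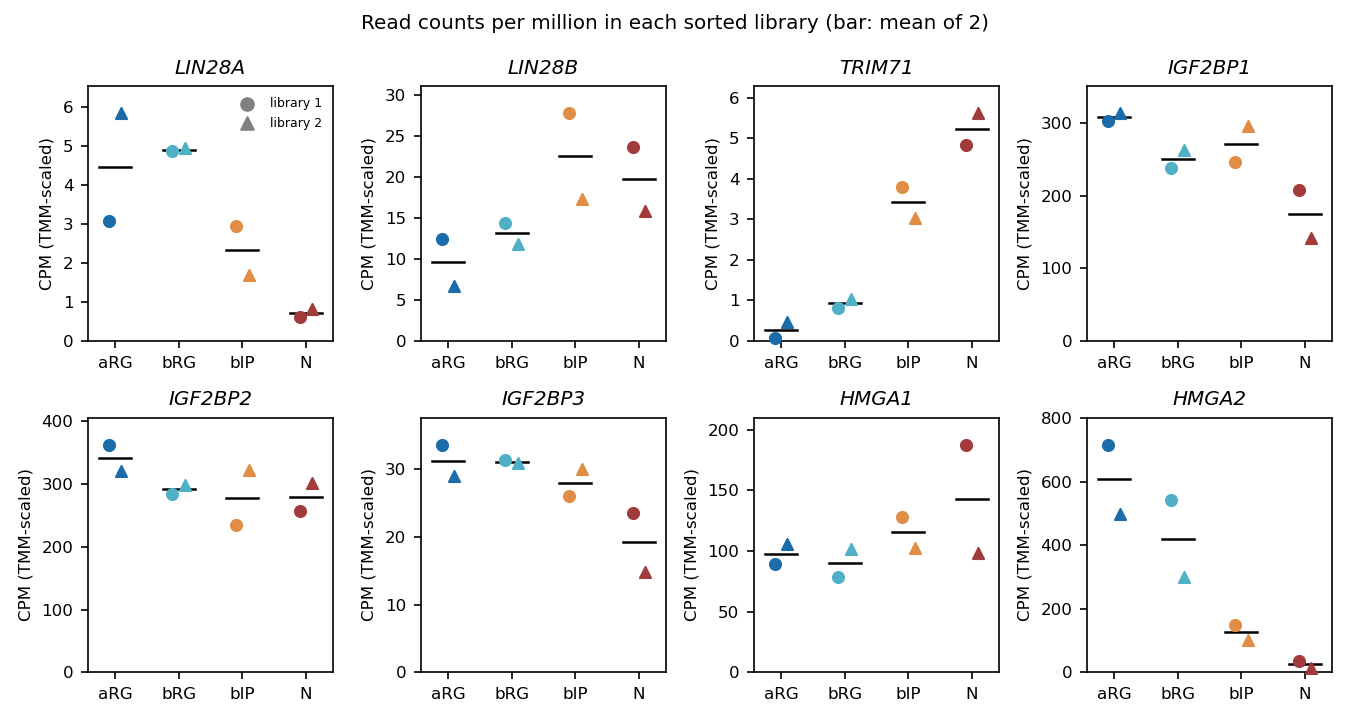
Level of each of the 8 genes in CPM (linear axis from 0, its own scale for each gene) in the 2 libraries of aRG, bRG, bIP and N. Points are libraries (circle for library 1, triangle for library 2) and bars are the means of 2. HMGA2 steps down from a mean of 608 CPM in aRG to 25.3 in N, TRIM71 steps up from 0.275 to 5.22, and IGF2BP2 stays between 278 and 341.

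HMGA2 encodes a chromatin protein that binds AT-rich DNA through its AT-hooks and is a classic let-7 target. Its level was 717 and 499 CPM in the libraries of aRG, 543 and 299 in bRG, 149 and 103 in bIP, and 36.6 and 14.0 in N. Both libraries of each radial glia population were above both of bIP, and both of bIP were above both of N, while aRG and bRG overlapped. The means were 608 ± 154 (SD, n = 2) in aRG, 421 ± 172 in bRG, 126 ± 32.3 in bIP and 25.3 ± 16.0 in N.

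Between N and aRG the log2 fold change of HMGA2 was -4.59 (SE 0.49, edgeR's adjusted p = 9.81e-05), a 24.0-fold lower level in N. Against bRG it was -4.06 (SE 0.47, adjusted p = 0.000349). HMGA2 had already fallen in bIP, by 2.27 on the log2 scale against aRG (SE 0.44, adjusted p = 0.0148), and fell by a further 2.32 from bIP to N (SE 0.44, adjusted p = 0.0158). The size of these last differences was kept without each library, at -2.57 to -2.03 for bIP against aRG and -3.17 to -1.78 for N against bIP. The adjusted p rose above the threshold without bIP 2 for the former (0.0986, log2 fold change -2.03) and without N 2 for the latter (0.0585, log2 fold change -1.78). For bIP against bRG the value was -1.74 (SE 0.43, edgeR's adjusted p = 0.0985), with DESeq2 at an adjusted p of 0.00286 and edgeR with the replicate block at 0.000977. For bRG against aRG it was -0.53 (SE 0.42, adjusted p = 1). So the order aRG, bRG, bIP, N holds for the means. The difference between the neighbours aRG and bRG did not pass the threshold, here or in any of the 11 other settings. Comparing libraries of the same number, the difference of bRG from aRG was -0.40 (number 1) and -0.74 (number 2) on the log2(CPM + 1) scale. In that comparison edgeR called only 1 of 35382 rows, so the missed threshold does not show that the levels are equal.

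HMGA2 was also higher in library 1 than in library 2 of every population. Comparing libraries of the same number, the difference of N from aRG was -4.26 (number 1) and -5.06 (number 2) on the log2(CPM + 1) scale. Without aRG 2, the library with the most choroid plexus and mesenchyme marker reads, the log2 fold change between N and aRG was -4.86 (adjusted p = 9.62e-06). Markers of other cells moved with it. The 12 mitosis markers summed to 3978 to 4736 CPM in aRG, 1735 to 1894 in bRG, 381 to 529 in bIP and 104 to 139 in N. Mesenchyme, a tissue known to express HMGA2, had markers that summed to 393 and 2026 CPM in aRG, 295 to 354 in bRG, 135 to 154 in bIP and 18.2 to 41.8 in N. In aRG, bRG and bIP the library with the lower mesenchyme sum had the higher HMGA2 level, and in N the library with the higher sum did. The order in N rests largely on PDGFRB, with 816 reads in N 1 and 184 in N 2, beside 142 and 135 for COL1A1. PDGFRB also had the most reads of the 8 markers in every library of bRG and bIP. In bIP it had 2974 reads in bIP 1 and 1709 in bIP 2, beside 134 and 880 for COL1A1. The part of mitosis or mesenchyme in the differences between populations was not tested.

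The row HMGA2-AS1, an RNA annotated antisense to HMGA2, followed it closely. It stood at 491 and 515 CPM in aRG, 340 and 355 in bRG, 125 and 126 in bIP, and 13.8 and 15.1 in N. No 2 populations overlapped, and libraries of the same population lay closer together than they did for HMGA2. HMGA2-AS1 was lower in N than in aRG by a log2 fold change of -5.12 (SE 0.27, edgeR's adjusted p = 1.79e-06; -5.18 without aRG 2) and lower in bIP than in bRG by -1.47 (SE 0.23, adjusted p = 0.0118), a comparison in which HMGA2 itself missed the threshold. The library protocol does not mark the strand, so reads of HMGA2 and of HMGA2-AS1 cannot be told apart wherever the genes overlap. RefSeq's annotation of another chimpanzee assembly had 0 loci overlapping HMGA2, so the extent of any overlap in these counts is not known. The ratio of HMGA2-AS1 to HMGA2 reads was 0.413 to 0.846 in the libraries numbered 1 and 0.984 to 1.21 in those numbered 2, so every library numbered 2 had a higher ratio than every library numbered 1. On the human genome, whose table has no row for HMGA2-AS1, HMGA2 averaged 675 CPM in aRG, 467 in bRG, 145 in bIP and 26.9 in N.

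HMGA1, the paralogue of HMGA2 with the same kind of AT-hooks, was not lower in N. It was at 89.4 and 106 CPM in aRG, 78.7 and 101 in bRG, 128 and 103 in bIP, and 187 and 98.4 in N. Library N 1 was the highest of the 8 and N 2 lay among the radial glia libraries. The log2 fold change between N and aRG was 0.55 (SE 0.32, edgeR's adjusted p = 0.353), with 1.06 among libraries numbered 1 and -0.11 among those numbered 2 on the log2(CPM + 1) scale. The 8 rows annotated as HMGA1 pseudogenes, HMGA1P1 to HMGA1P8, which could take reads from HMGA1, reached at most 2.55 CPM in any library.

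**Figure D2:**
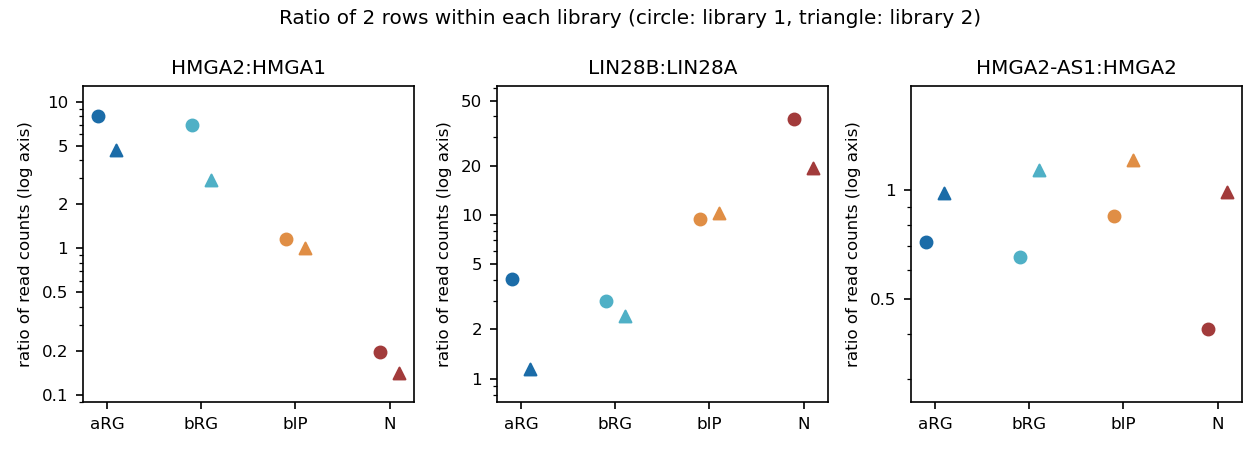
Ratio of read counts of 2 rows within each library (log axis) for HMGA2 to HMGA1, LIN28B to LIN28A and HMGA2-AS1 to HMGA2, with circles for library 1 and triangles for library 2 of each population. HMGA2 to HMGA1 runs from 8.02 in aRG 1 to 0.142 in N 2, and LIN28B to LIN28A runs from 1.15 in aRG 2 to 38.4 in N 1.

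Within a library, a ratio of 2 rows does not depend on scaling to library size. HMGA2 gave 8.02 and 4.71 reads per read of HMGA1 in aRG, 6.90 and 2.95 in bRG, 1.16 and 1.00 in bIP, and 0.195 and 0.142 in N. These ratios are not adjusted for transcript length, so only their change between libraries can be read. The change shows that HMGA1 and HMGA2 changed unequally, and it was not tested.

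LIN28A and LIN28B, paralogous blockers of let-7 maturation, had means in different orders. LIN28A was at 3.07 and 5.84 CPM in aRG, 4.86 and 4.95 in bRG, 2.95 and 1.69 in bIP, and 0.619 and 0.820 in N. Every radial glia library was above every bIP library, narrowly for aRG 1, and both libraries of N were the lowest. In N these levels rest on 16 and 19 reads. LIN28A was lower in N than in aRG by a log2 fold change of -2.63 (SE 0.70, edgeR's adjusted p = 0.0330) and lower than in bRG by -2.76 (SE 0.70, adjusted p = 0.0376). Without each library in turn the log2 fold change stayed between -3.08 and -2.11 against aRG and between -2.98 and -2.58 against bRG. The adjusted p did not stay under the threshold. Against aRG it was 0.216 without aRG 2 (log2 fold change -2.11), 0.147 without N 1 and 0.107 without N 2, and against bRG it was 0.118 to 0.159 without any of the 4 libraries. On the human genome the adjusted p was 0.0418 against aRG and 0.0530 against bRG. The step from bRG to bIP was -1.08 (SE 0.65, adjusted p = 0.744).

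Markers of pluripotent cells, which are known to express LIN28A, were low in every library. The 10 markers summed to 16.1 and 7.11 CPM in aRG, 15.6 and 14.7 in bRG, 5.67 and 16.3 in bIP, and 3.40 and 6.65 in N, with DNMT3L and UTF1 at 0 in all 8. In aRG, bRG and bIP LIN28A was higher in the library with the lower sum, and in N it was higher in the library with the higher sum. The part of such cells in the difference between N and radial glia was not tested.

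LIN28B was at 12.5 and 6.69 CPM in aRG, 14.4 and 11.9 in bRG, 27.8 and 17.3 in bIP, and 23.7 and 15.9 in N. Both libraries of bIP and both of N were above all 4 radial glia libraries, and library 1 was higher than library 2 in each population. The means were 9.60 ± 4.11 (SD, n = 2) in aRG, 13.2 ± 1.80 in bRG, 22.6 ± 7.40 in bIP and 19.8 ± 5.56 in N. The differences from aRG did not pass the threshold. For bIP the log2 fold change was 1.24 (SE 0.43, edgeR's adjusted p = 0.201), and for N it was 1.05 (SE 0.43, adjusted p = 0.176). With the replicate block both passed, at 1.26 (adjusted p = 0.0404) for bIP and 1.08 (adjusted p = 0.0450) for N. Within the libraries numbered 1 and those numbered 2, the difference of bIP from aRG was 1.09 and 1.25 on the log2(CPM + 1) scale, and that of N from aRG 0.87 and 1.13. Reads of LIN28B per read of LIN28A were 4.08 and 1.15 in aRG, 2.97 and 2.40 in bRG, 9.42 and 10.3 in bIP, and 38.4 and 19.4 in N. Every N library had a higher ratio than every bIP library, and every bIP library a higher one than any radial glia library, a difference that was not tested. LIN28B-AS1, a row annotated antisense to LIN28B, held between 0.213 and 0.546 reads per read of LIN28B, and these too cannot be separated by strand.

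TRIM71 (also known as LIN41) encodes an RNA-binding ubiquitin ligase of embryonic stem cells and a conserved let-7 target. It was at 0.0787 and 0.472 CPM in aRG, 0.811 and 1.04 in bRG, 3.81 and 3.03 in bIP, and 4.83 and 5.61 in N. The populations did not overlap, in the order aRG, bRG, bIP, N, and the values in aRG rest on 2 and 16 reads. TRIM71 was higher in N than in aRG by a log2 fold change of 4.19 (SE 0.90, edgeR's adjusted p = 0.00977). Without aRG 1, the library with 2 reads, the adjusted p was 0.0767 and the log2 fold change 3.39, and without aRG 2 they were 0.00904 and 5.95. For bIP against aRG it was 3.58 (SE 0.88, adjusted p = 0.0515), with DESeq2 at an adjusted p of 0.000539, the human genome at 0.0284, the replicate block at 0.0236 and the fit without aRG 2 at 0.0414. For N against bRG it was 2.49 (SE 0.82, adjusted p = 0.110, DESeq2 0.0143), and N and bIP differed by 0.61 (SE 0.77, adjusted p = 0.773). TRIM71 shares its locus in part with a protein-coding locus that has no gene name in RefSeq, as do LIN28B and IGF2BP2, so reads at the overlap are uncertain.

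**Figure D3:**
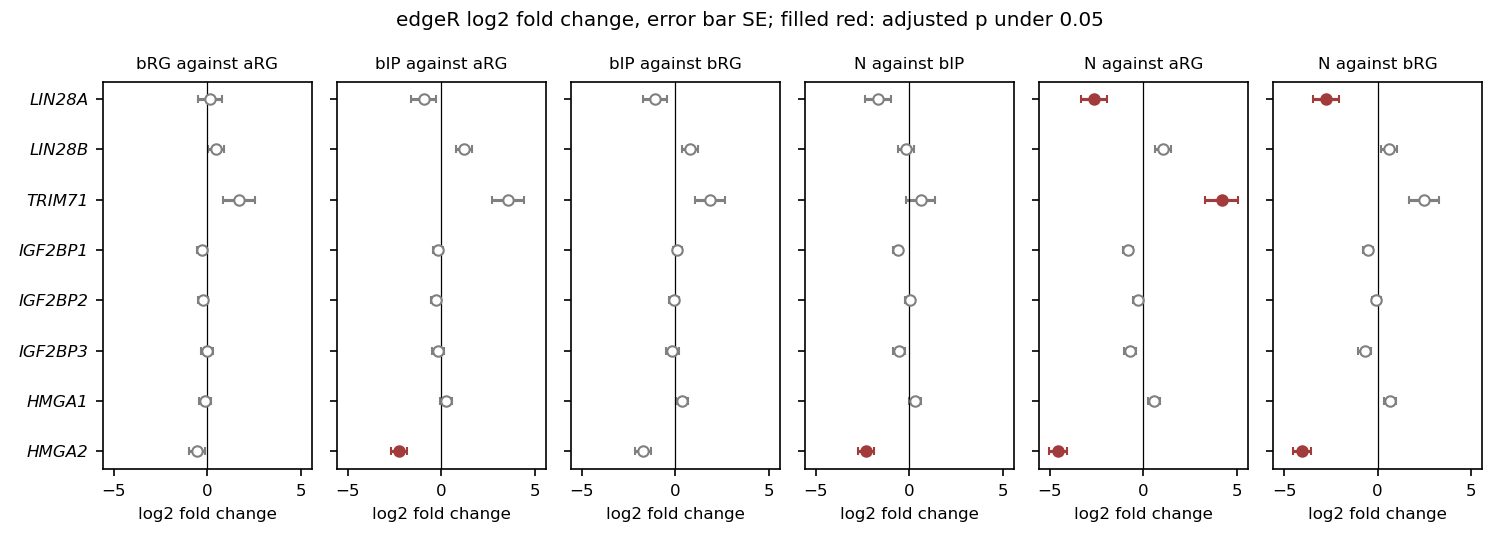
Log2 fold change of the 8 genes in each of the 6 comparisons, with bars of 1 SE, from edgeR's fit to 8 libraries; filled points passed an adjusted p under 0.05. HMGA2 reaches -4.59 in N against aRG and TRIM71 reaches 4.19, while no point is filled in bRG against aRG or in bIP against bRG.

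The IGF2BP family encodes RNA-binding proteins that stabilise bound transcripts and control their translation. IGF2BP1 was at 303 and 314 CPM in aRG, 238 and 264 in bRG, 246 and 296 in bIP, and 207 and 142 in N. Both libraries of N were the lowest of the 8 and both of aRG the highest. The log2 fold change between N and aRG was -0.82 (SE 0.26, edgeR's adjusted p = 0.0684). That p is just above the threshold, and it was under it in 7 of 11 other settings, over which it ran from 0.0177 to 0.130. Those settings all draw on the same 8 libraries. Without each library in turn the log2 fold change ranged from -1.13 to -0.57. DESeq2 gave 0.0336, the human genome 0.0355 and the replicate block 0.0177.

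IGF2BP3 was at 33.6 and 28.9 CPM in aRG, 31.4 and 30.9 in bRG, 26.1 and 30.0 in bIP, and 23.6 and 14.8 in N. Both libraries of N were again below the other 6. The log2 fold change between N and aRG was -0.70 (SE 0.33, edgeR's adjusted p = 0.236), and none of the 11 other settings brought it past the threshold. Reads of IGF2BP3 per read of IGF2BP1 stayed between 0.0922 and 0.132 over the 8 libraries.

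IGF2BP2 was at 362 and 320 CPM in aRG, 284 and 298 in bRG, 234 and 322 in bIP, and 257 and 302 in N. The libraries of bRG, bIP and N overlapped, and bIP also overlapped aRG. Between N and aRG the log2 fold change was -0.29 (SE 0.25, edgeR's adjusted p = 0.564). IGF2BP2 had the smallest ratio of highest to lowest population mean of the 8 genes, 1.23, against 24.0 for HMGA2. IGF2BP2-AS1, antisense to it, held 42.4 to 63.2 CPM over the 8 libraries and passed the threshold in no comparison.

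The genes around this pathway were taken from lists written down with the results of the whole series known. Of 19 genes of let-7 processing, 2 passed the test of any difference, which 7.62% of all rows passed. DESeq2 called 3 (18% of the rows it tested). TNRC6C, a partner of Argonaute in silencing, averaged 183 CPM in aRG and 440 in N (log2 fold change 1.27, SE 0.26, edgeR's adjusted p = 0.00838). MSI1, an RNA-binding protein of neural stem cells, averaged 176 CPM in aRG and 63.1 in N (-1.48, SE 0.29, adjusted p = 0.00644). Between N and aRG TNRC6B also passed (0.81, SE 0.23, adjusted p = 0.0449; named after its value was seen), so 2 of 19 were higher and 1 lower, where 4.87% of all rows were higher and 4.8% lower. Without aRG 2 the log2 fold change was 1.19 for TNRC6C (adjusted p = 0.0625) and 0.72 for TNRC6B (adjusted p = 0.241), so both kept most of their size and missed the threshold. The list had a median log2 fold change of 0.08 between N and aRG, beside -0.08 over all rows. The remaining genes of the list, among them DROSHA, DICER1 and TUT4, did not pass.

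Of 7 host transcripts of let-7 genes, 6 were tested. For any difference edgeR called 0 (7.62% of all rows) and DESeq2 called 1 (18% of the rows it tested). MIR99AHG was listed at 0 throughout. MIR100HG, named after its value was seen, was lower in N than in bRG (116 against 234 CPM, log2 fold change -1.01, SE 0.24, adjusted p = 0.0271). The table also has 12 rows of the let-7 family itself, 6 of them at 0 in every library and none above 25 reads. Libraries primed on poly(A) tails do not measure the mature microRNA.

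Of 33 let-7 targets other than the 8 genes above, 32 were tested and 11 passed the test of any difference (7.62% of all rows). DESeq2 called 13 (18% of the rows it tested). Between N and aRG, 8 were lower (4.8% of all rows) and 3 higher (4.87% of all rows) in N, and the list median was -0.12 beside -0.08 over all rows. The 5 with the smallest adjusted p were all lower in N than in aRG. RRM2, a subunit of ribonucleotide reductase, averaged 288 CPM in aRG, 204 in bRG, 51.0 in bIP and 1.63 in N (-7.46, SE 0.44, adjusted p = 1.88e-06). AURKB, a mitotic kinase, averaged 395, 176, 39.5 and 2.39 CPM in the same order (-7.37, SE 0.49, adjusted p = 3.17e-06). NR2E1, a nuclear receptor of neural stem cells, fell from 104 CPM in aRG to 4.83 in N (-4.43, SE 0.31, adjusted p = 4.55e-06). PRTG fell from 40.9 to 2.18 CPM (-4.23, SE 0.54, adjusted p = 0.000325), and the cell-cycle factor E2F2 from 20.4 to 0.632 (-4.99, SE 0.65, adjusted p = 0.000367). RRM2, AURKB and E2F2 are genes of dividing cells, and the mitosis markers given beside HMGA2 fell between the same populations. The part of cell division in the fall of these targets was not tested. The 3 targets higher in N, named after their values were seen, were MYCN (67.1 CPM in aRG and 193 in N, adjusted p = 0.00792), HIC2 (43.9 and 121, adjusted p = 0.00614) and ONECUT2 (4.18 and 16.1, adjusted p = 0.0321).

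CCND1 and CCND2, cyclins of the G1 phase on the same list, could not be read on the chimpanzee genome, where CCND1 was listed at 0 in all 8 libraries and CCND2 at 5 to 29 reads. On the human genome, looked up after this was seen, CCND1 averaged 54.1 CPM in aRG and 9.81 in N (log2 fold change -2.46, SE 0.57, edgeR's adjusted p = 0.0127). CCND2 averaged 476 CPM in aRG, 408 in bRG, 314 in bIP and 132 in N, lower in N than in aRG by -1.85 (SE 0.30, adjusted p = 0.00154).

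Of 11 transcripts known to be bound by IGF2BP proteins, 1 passed edgeR's test of any difference (7.62% of all rows). DESeq2 called 3 (18% of the rows it tested). The 1 called by edgeR was MAPT, the gene of the axonal protein tau, at 90.5 CPM in aRG, 254 in bRG, 203 in bIP and 999 in N (N against aRG 3.46, SE 0.44, edgeR's adjusted p = 0.000314). Of 6 partners and targets of HMGA2, 2 passed that test, both lower in N than in aRG. PLAG1, a zinc-finger transcription factor, averaged 128 CPM in aRG and 34.0 in N (-1.92, SE 0.42, adjusted p = 0.0114). CCNA2, the S-phase cyclin, averaged 91.7 and 15.4 (-2.57, SE 0.28, adjusted p = 0.000131).

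Of 8 HMG proteins outside the HMGA family, 4 passed the test of any difference (7.62% of all rows). Between N and aRG 5 were lower in N (4.8% of all rows) and 0 higher, by edgeR and by DESeq2, with a list median of -1.32 beside -0.08 over all rows. HMGB2, a DNA-bending protein abundant in dividing cells, averaged 662 CPM in aRG, 324 in bRG, 122 in bIP and 24.7 in N (-4.74, SE 0.61, edgeR's adjusted p = 0.000361). HMGN2 averaged 610 in aRG and 160 in N, HMGN3 390 and 128, and HMGN5 32.5 and 3.96, each past the threshold. The fifth, HMGB3, averaged 164 and 79.7 (log2 fold change -1.04, adjusted p = 0.0478), and without aRG 2 its log2 fold change was -0.92 (adjusted p = 0.181).

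Of 5 transcription factors linked with later progenitor stages, 4 passed the test of any difference (7.62% of all rows), in both directions. NFIA averaged 2076 CPM in aRG, 2061 in bRG, 6750.2 in bIP and 4544 in N, and NFIB rose from 671 in aRG to 3059 in N (2.19, SE 0.25, edgeR's adjusted p = 0.000141). ZBTB20 was lower in N, at 61.2 CPM against 286 in aRG (adjusted p = 0.00157), and so was SOX9, at 24.8 against 275 (adjusted p = 0.000393). NFIA was higher in bIP than in bRG by 1.71 (SE 0.23, adjusted p = 0.00677), a step at which the log2 fold change of HMGA2 was -1.74 and did not pass the threshold. Between N and aRG NFIA was higher by 1.13 (adjusted p = 0.00622), and without aRG 2 by 1.04 (adjusted p = 0.0520).

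**Figure D4:**
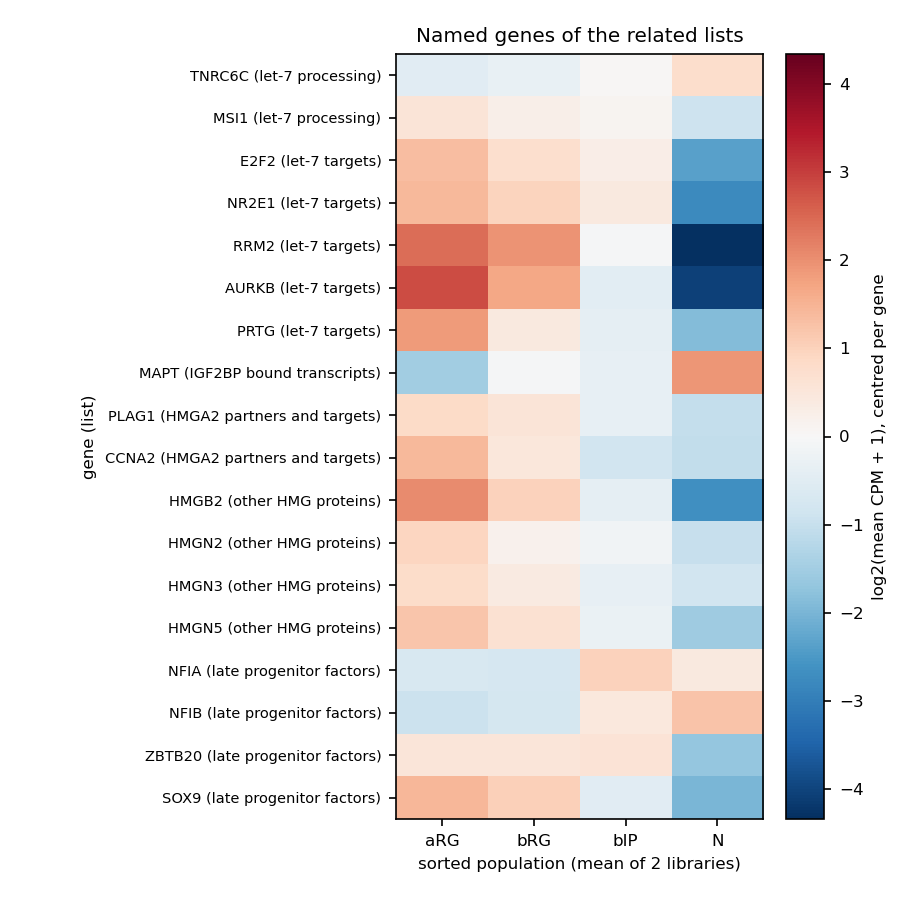
Population means of the genes named from the related lists, as log2(mean CPM + 1) centred per gene, from blue (low) to red (high). RRM2, AURKB and HMGB2 are highest in aRG and lowest in N, while MAPT, NFIB and TNRC6C are highest in N.

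Genes with the most similar pattern were found by the root mean square difference of centred log2(CPM + 1) over the 8 libraries, among genes of at least 10 CPM. Nearest to HMGA2 were CXCR4, a chemokine receptor (0.234), YAP1, the effector of Hippo signalling (0.246), and FKBP10 (0.264), where the median gene was 1.93 away. CXCR4 averaged 40.4 CPM in aRG, 25.2 in bRG, 5.96 in bIP and 0.722 in N. For LIN28A the nearest was TPP1 (0.189), then SLC3A2 and MFSD2A. For LIN28B they were ERO1B (0.156), SLC25A42 and SLC25A46, and for TRIM71 CPEB4 (0.128), ROGDI and PTPRU. IGF2BP1 was nearest to DHTKD1 (0.0953), SDHA and ING1, IGF2BP2 to FMR1-IT1 (0.0605), THOC1 and ZBTB4, IGF2BP3 to ASXL2 (0.119), DHTKD1 and CDK2AP2, and HMGA1 to RTN4R (0.122), LSS and TUBB2B. Within the set, the closest pair was IGF2BP1 and IGF2BP3 (0.141) and the farthest TRIM71 and HMGA2 (2.75). A gene that varies little lies close to many others on this measure. The added 1 CPM also shrinks the changes of TRIM71 and LIN28A, whose levels are low, so their nearest genes need not share their fold changes. TRIM71 averaged 0.275 CPM in aRG and 5.22 in N, beside 54.2 and 274 for CPEB4. LIN28A averaged 4.45 CPM in aRG and 0.719 in N, beside 58.1 and 16.6 for TPP1.

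The human genome table (hg38) holds the same libraries counted on another genome. Over the 18137 shared symbols, chimpanzee totals were 1.70 to 1.74 times the human ones. HMGA1 had 1.98 to 2.02 times as many reads on the chimpanzee genome, HMGA2 1.84 to 1.90 times and IGF2BP1 1.94 to 1.98 times. The ratio varied more for the low LIN28A (1.14 to 2.05) and TRIM71 (1.00 to 2.06). LIN28A averaged 4.45 CPM in aRG and 0.719 in N on the chimpanzee genome, and 5.55 and 1.16 on the human genome. IGF2BP3, at 1.28 to 1.59 times, lay below the totals in every library. It had more reads on the chimpanzee genome but a larger share of all counts on the human genome.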

How the data were processed

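The deposited tables hold whole-number read counts per gene symbol for 8 libraries on panTro6 and on hg38. STAR was used, per the submitters' processing notes. Not given in the sources used here are its version, the annotation, the counter and its strand setting. Nor do they say whether both mates of a read pair were counted on the chimpanzee genome, so a count need not stand for a separate fragment. Each library started from RNA of 10000 cells, with 12 to 17 cycles of PCR by a modified Smart-seq2 method that marks no strand, per the labels' protocols, so counts include PCR copies. A row with no gene name (0.00545% to 0.00771% of counts) was left out.

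Counts were filtered with filterByExpr, scaled by TMM and fitted with edgeR 4.0.16 (limma 3.58.1, R 4.3.3) using glmQLFit and glmQLFTest, with 1 coefficient per population over 8 libraries and 4 residual degrees of freedom. The common biological coefficient of variation came to 0.629. All tests were two-sided, p-values were adjusted by Benjamini-Hochberg within each comparison over 35382 rows, and SE was derived from the F statistic. DESeq2 1.42.0 was an alternative, with the hg38 table, other scalings and filters, halved counts, a replicate block and left-out libraries. Replicate numbers 1 and 2 come from the labels, which do not say what they share. Deviations of same-numbered libraries from their population means correlated with r of 0.123 to 0.266 over all 6 pairs of populations, so the numbers were taken as pairing the libraries, and the blocked value is given where it changes a call. The code was tested on simulated data. With 2 libraries per population, the number of libraries limits the precision more than depth does.

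All 8 genes were named. From each list the genes past the threshold for any difference were named, up to 5 by adjusted p, and for each of the 8 genes the 3 with the most similar pattern. The members and lists were chosen with earlier results of these data known. Overlapping loci were read from RefSeq's annotation of the assembly NHGRI_mPanTro3-v2.0, not the build of the counts, and it matched 8 of 8 symbols.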

Additional observations from a re-analysis of the deposited data

How the results depend on the processing

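Of the calls in single genes, none changed direction under any alternative tried. Between N and aRG, LIN28A passed in 10 of the 11 alternatives. IGF2BP1, not called as reported, passed there in 7 of the 11, among them DESeq2 and the human genome. HMGA2 stayed past the threshold in N against aRG and in N against bRG under all 11 alternatives and without each library of the populations compared. The number of the 8 genes called in bIP against aRG was 1 as reported. It was 2 on the human genome, with DESeq2, without a filter, with at least 1 CPM, on shared symbols and with halved counts. In bIP against bRG it was 0 as reported and 1 with DESeq2 and without a filter. In N against bRG it was 2 as reported and 3 by DESeq2. There it was 1 on the human genome (12.2% of all rows passed) and in a fit of only the populations compared (4.61%). In N against aRG DESeq2 called 4, beside 3 as reported. In the test of any difference it was 3 by DESeq2, and 1 with at least 5 CPM, which removes TRIM71 (19.1% of all rows passed). Leaving out some libraries changed the number called in every comparison except bRG against aRG. DESeq2 also called more of all rows, 17.5% in N against aRG, 14% in N against bRG and 18% for any difference. In bIP against aRG, 2.83% of all rows passed as reported. There 7.28% passed on the human genome, 10% with DESeq2 and 4.25% without a filter. With at least 1 CPM it was 4.1%, on shared symbols 6.75% and with halved counts 3.93%. In bIP against bRG it was 5.81% with DESeq2 and 2.34% without a filter, beside 1.03% as reported.

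With the number as a replicate block, 3 genes were called in bIP against aRG, 1 in bIP against bRG and 5 in N against aRG. The added calls are those of LIN28B, TRIM71, IGF2BP1 and HMGA2 given beside their results, and the block changed no other call of the 8 genes.

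Uncalled values near 0 changed sign. IGF2BP2 in N against bIP (0.01) was -0.13 on hg38, -0.018 with DESeq2 and with its size factors, -0.014 without a filter, -0.12 with at least 5 CPM, -0.022 with at least 1 CPM, -0.073 on shared symbols, -0.040 in a fit of those populations, -0.019 with halved counts and -0.20 to 0.26 without each library. IGF2BP3 in bRG against aRG (-0.0063) was 0.030 with at least 5 CPM, 0.00020 with at least 1 CPM, 0.022 on shared symbols, 0.0029 with halved counts and -0.11 to 0.061 without each library. Without each library, LIN28A ranged from -0.30 to 0.68 and HMGA1 from -0.33 to 0.034 in bRG against aRG. LIN28B ranged from -0.51 to 0.20 and HMGA1 from -0.23 to 0.71 in N against bIP. IGF2BP1 ranged from -0.031 to 0.23 and IGF2BP2 from -0.32 to 0.14 in bIP against bRG, and IGF2BP2 from -0.18 to 0.048 in N against bRG. The cause of these changes was not tested. Leaving out aRG 2 in the related lists was chosen after seeing the data, and it lowered the number of let-7 processing genes called for any difference. Low counts limit LIN28A in N and TRIM71 in aRG.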
